A study of Homo sapiens with 4 samples.

Results

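Sterol synthesis and its control by SREBP were followed through 8 genes in K562 cells treated with AC-1041. They are INSIG1 and SREBF2 of the sterol control system, and HMGCS1, IDI1, FDPS, FDFT1, SQLE and DHCR7 of the synthesis pathway. The genes were chosen by name in the array annotation, and each had 1 probe, so the group comprised 8 of the 14272 gene names on the array, which held 14297 gene probes. K562 is a human erythroleukemia cell line, and AC-1041 is a morpholine-substituted trifluorophthalimide, an analog of thalidomide that binds lipid droplets. On each of 4 two-colour Agilent arrays, RNA of K562 cells treated for 4 h was hybridised together with RNA of control K562 cells, so every array gave 1 ratio of treated to control. The labels call the controls untreated and give no dose, while the study's methods describe a DMSO vehicle for them. The methods also state a dose for AC-1041, which the study's results describe in other terms. According to the methods, 4 samples were collected for each compound and for its controls. The labels do not say that the arrays carry separate cultures, so p-values measure the spread between arrays, which may be technical.

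Cholesterol is built from acetyl-CoA by way of mevalonate, isopentenyl diphosphate, farnesyl diphosphate, squalene and lanosterol. The transcription factor SREBP2, the product of SREBF2, is held in the membrane of the endoplasmic reticulum by SCAP and the INSIG proteins while sterols are plentiful. When sterols fall it moves to the Golgi, is cut there, and its free N-terminal part activates the genes of the pathway, INSIG1 among them, through sterol regulatory elements that often lie near CCAAT and GC boxes.

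The RefSeq promoter table of GRCh38.p14, which covers 250 bases before to 50 bases after each transcription start, held 6 of the 8 genes, with no entry for FDFT1 and SQLE. A core of the sterol regulatory element, searched as CACNCCAC on both strands, was found in a promoter of INSIG1, IDI1 and SREBF2, that is 3 of 6 genes, while 7.05% of the 27305 genes in the table held it. The CCAAT motif was found in 6 of 6 genes against 39.7% of all genes, and GGGCGG, the core of the GC box, in 6 of 6 against 48.3%. A gene was counted if any of its listed starts held the motif. By promoter, CACNCCAC was in 3 of the 10 promoters of these genes, CCAAT in 7 and GGGCGG in 9. The shares over all 35116 promoters were 5.87%, 34.6% and 45.0%. These matches describe letters in the window and are not measured binding. Stretches around the matches are shown to let the promoters be compared, each 5′ to 3′ in the direction of its gene, with the sterol element core, or its reverse complement, in capitals.
INSIG1 (chr7:155297630-155297717, plus strand): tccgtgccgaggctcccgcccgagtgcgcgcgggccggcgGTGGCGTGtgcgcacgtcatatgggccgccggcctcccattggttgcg
IDI1 (chr10:1048983-1049012, minus strand, before the third of its listed starts): ggccgggcgatGTGGCGTGgactggcgctg
SREBF2 (chr22:41832933-41833020, plus strand): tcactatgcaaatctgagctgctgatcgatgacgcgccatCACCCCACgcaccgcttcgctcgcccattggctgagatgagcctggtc
In HMGCS1 and FDPS, where CACNCCAC was not found, the capitals mark CCAAT or its reverse complement, which occurred 2 times before the first of the 2 listed HMGCS1 starts and 3 times before the FDPS start.
HMGCS1 (chr5:43313488-43313587, minus strand, before the first of its listed starts): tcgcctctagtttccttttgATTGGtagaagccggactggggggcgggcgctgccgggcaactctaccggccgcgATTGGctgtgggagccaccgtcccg
FDPS (chr1:155308670-155308839, plus strand): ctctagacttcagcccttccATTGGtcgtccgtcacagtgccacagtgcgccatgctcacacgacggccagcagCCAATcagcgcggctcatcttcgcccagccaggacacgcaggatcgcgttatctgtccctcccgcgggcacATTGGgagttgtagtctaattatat

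The arrays themselves set limits on every ratio given here. Probes well above background numbered from 5941 to 9515 per channel, no spot was saturated, and from 1.57% to 8.08% of the spots of an array were marked as outliers and left out. Cy5 labelled the treated RNA on arrays 1 and 2, and Cy3 labelled it on arrays 3 and 4. Negative control spots had an SD of 226 to 308 on the first pair and 27.8 to 40.5 on the second, so that orientation and quality of the arrays cannot be told apart. Across probes, ratios on arrays of the same orientation had correlations of 0.81 and 0.94, but those of opposite orientation only -0.29 to -0.12. Ratios were fitted with limma with terms for treatment and for dye, and the latter passed an adjusted p of 0.05 for 58.2% of the 8852 probes tested. The standard errors and adjusted p-values therefore come from the scatter within each dye orientation, whereas each SD is taken over all arrays. A probe has at most 2 residual degrees of freedom in this fit, so limma draws its scatter toward a value pooled over all probes tested. An SE can thus be smaller or larger than the gene's own arrays alone would give, and the calls rest partly on that pooled value. The exact sign-flip test over 4 arrays cannot give a 2-sided p below 0.125.

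All 8 probes gave a signal well above background on every array, for treated and control RNA alike. Of K562 erythroid markers, 14 were on the array, all 14 passed the filter on dim probes, and 12 were well above background throughout, while 7 of 12 markers of other cell types did not pass that filter and 2 of the other 5 were lower in treated cells. Among the K562 markers 1 was higher and 6 were lower after treatment, their median log2 ratio being -0.12, and the part of either marker list in the sterol gene ratios was not tested. In bulk RNA, fewer cells of a kind and less RNA per cell cannot be told apart.

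Most of these genes were called higher in treated cells by limma, by modest folds, though not all read higher in both dye orientations. INSIG1, HMGCS1, IDI1, FDFT1 and DHCR7 were called higher, SQLE was called lower, and SREBF2 and FDPS did not pass the test. Thus 5 of 8 genes, or 62.5%, were called higher, while 24.3% of all probes tested were called higher, 13.0% lower and 37.3% in either direction. Among the genes called, FDFT1, DHCR7 and SQLE read opposite signs in the orientations. With treated RNA in Cy5 and in Cy3, FDFT1 read -0.10 and 0.69, DHCR7 0.73 and -0.16, and SQLE -1.36 and 0.80. Over the 8 genes the log2 ratio had a median of 0.29, against 0.02 over all probes. The genes were chosen with earlier results of these data known, which limits this contrast and that of the counts called. Only INSIG1 and IDI1 were called higher with a ratio above 0 on every array, 2 of 8 genes against 13.4% of probes. IDI1 was included by a ratio of only 0.006 on array 1, which was -0.08 with the signals that Feature Extraction had processed. None of the 8 was below 0 on every array, while 9.19% of the probes measured on all 4 were, and 6.62% of all tested were so and called lower. Without the dye term, which leaves the orientation difference in the error, none of the 8 passed the limma test, with INSIG1 nearest at an adjusted p of 0.094. Over all probes, 52 were then called higher and 4 lower. INSIG1 and HMGCS1 had an unadjusted p under 0.05, a count without a share over all probes to set it against. Without array 4, INSIG1 alone was called higher, DHCR7 having too few arrays to be fitted.

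**Figure D1:**
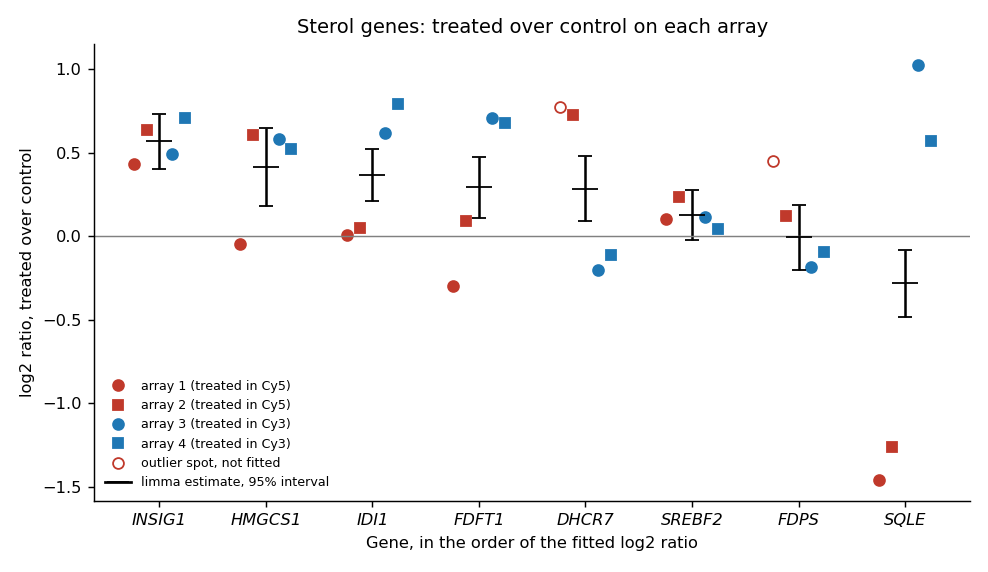
Log2 ratio, treated over control, for each of the 8 genes on each array, with the limma estimate and its 95% interval in black. The points of INSIG1 and SREBF2 lie close together, while those of SQLE lie from -1.46 to 1.03 and split by dye orientation.

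INSIG1, whose product retains the SCAP and SREBP complex in the endoplasmic reticulum, is itself an SREBP target. It had the smallest SD over arrays of the 5 genes called higher. Its log2 ratios were 0.43, 0.64, 0.49 and 0.71 on arrays 1 to 4. All 4 arrays were thus above 0, in both orientations. The normalized log2 intensity was 12.96, 13.21, 13.35 and 13.29 in control cells and 13.40, 13.85, 13.84 and 14 in treated cells on the same arrays. The lowest treated level, 13.40 on array 1, lay just above the highest control level, 13.35 on array 3. With the signals that Feature Extraction had processed, the log2 ratio was only 0.08 on array 1 and 0.56, 0.63 and 0.71 on arrays 2 to 4. The limma estimate was 0.57 (SE 0.073, 95% interval 0.40 to 0.73, adjusted p = 0.00058), a 1.48-fold higher signal, with an SD of 0.13 over the arrays. It stood at the 93.5th percentile of all probes tested. The ratio read with treated RNA in Cy5 was 0.53 and in Cy3 0.60, and the orientations did not differ beyond error in limma (adjusted p = 0.72). The call was lost only without the dye term, 1 of the settings tried. The probe lies at chr7:154731004-154731063 on hg18.

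SREBF2 encodes SREBP2 itself. Its log2 ratios were 0.11, 0.24, 0.11 and 0.05, all above 0 and all small, with an SD of 0.08. Ratios above 0 on all 4 arrays were found for 16.7% of probes measured on all of them. The estimate of 0.13 did not pass the limma test (95% interval -0.02 to 0.28, adjusted p = 0.17). With median centring in place of loess it was 0.26 and passed (limma adjusted p = 0.034). Control levels lay from 11.14 to 11.51 and treated levels from 11.24 to 11.63 on the log2 intensity scale, so the groups overlapped. The probe lies at chr22:40632497-40632556 on hg18.

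HMGCS1 makes HMG-CoA, an early intermediate of the pathway on the way to mevalonate. Its log2 ratios were -0.05, 0.61, 0.58 and 0.52, so 3 arrays lay close together and array 1 lay apart, near 0. The control intensities were 11.63, 11.10, 11.44 and 11.55 and the treated ones 11.59, 11.71, 12.02 and 12.07. The lowest treated level, on array 1, lay below the highest control level, on the same array. The estimate was 0.42 (SE 0.10, 95% interval 0.18 to 0.65, limma adjusted p = 0.014), or 1.33-fold. It was 0.58 without array 1 and 0.25 without array 2. The orientations did not differ beyond error (limma adjusted p = 0.28). The call was lost without array 3 or array 4, and also with the series table or the signals that Feature Extraction had processed. The probe lies at chr5:43326838-43326897 on hg18.

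IDI1 interconverts isopentenyl and dimethylallyl diphosphate, the C5 units of the pathway. Arrays 1 and 2 gave log2 ratios of 0.01 and 0.05, and arrays 3 and 4, with the dyes swapped, gave 0.62 and 0.79. No array was below 0, but array 1 read -0.08 with the signals that Feature Extraction had processed. The size depended on the orientation. The estimate was 0.37 (SE 0.067, 95% interval 0.21 to 0.52, adjusted p = 0.0034), or 1.29-fold, with an SD of 0.40 over arrays, and the difference between orientations passed the same limma test (adjusted p = 0.0029). Control intensities of 14.37, 14.87, 14.32 and 14.50 and treated intensities of 14.37, 14.92, 14.94 and 15.30 overlapped between groups. The call was lost without array 4, where the limma adjusted p was 0.065. The probe lies at chr10:1076619-1076678 on hg18.

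FDPS, which makes farnesyl diphosphate from the C5 units, did not move detectably. Arrays 2 to 4 gave log2 ratios of 0.12, -0.18 and -0.09, and its spot on array 1 was marked as an outlier and not fitted. The estimate was -0.01 with a 95% interval of -0.20 to 0.19 (limma adjusted p = 0.96), so a change of up to about 0.20 in either direction was within the error. With the marked spot kept, which read 0.45, the estimate turned to 0.075. The control levels of the fitted arrays lay from 15.59 to 15.78 and the treated ones from 15.41 to 15.90. The probe lies at chr1:153556893-153556952 on hg18.

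FDFT1 and SQLE catalyse the first steps committed to sterols, the making of squalene and its epoxidation. The log2 ratios of FDFT1 were -0.30, 0.09, 0.71 and 0.68, so they were higher with the treated RNA in Cy3. Its estimate was 0.29 (SE 0.079, 95% interval 0.11 to 0.48, limma adjusted p = 0.020), or 1.23-fold, with an SD of 0.49. The ratios of the pair with Cy5 averaged -0.10 and those of the pair with Cy3 0.69, a difference that passed the limma test (adjusted p = 0.0031). The FDFT1 call was lost with the series table and without array 2, 3 or 4, at limma adjusted p-values from 0.050 to 0.13. The FDFT1 probe lies at chr8:11733610-11733669 on hg18.

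SQLE, the epoxidase, was the gene on which the orientations were farthest apart. Arrays 1 and 2, where Cy5 labelled the treated RNA, gave log2 ratios of -1.46 and -1.26, and arrays 3 and 4 gave 1.03 and 0.57. The treated RNA was thus dimmer on arrays 1 and 2 and brighter on arrays 3 and 4. Intensities were 14.04, 14.16, 13.16 and 13.37 in control cells and 12.58, 12.89, 14.19 and 13.94 in treated cells. In both groups the higher values were those read in Cy3. The difference between the orientations was -2.16 (limma adjusted p = 3.6e-05), at the 98.0th percentile of all probes by size. The estimate of -0.28 (SE 0.088, 95% interval -0.48 to -0.08, limma adjusted p = 0.036) is the mean of opposite readings with an SD of 1.26 over arrays, so the direction of SQLE is not settled by these arrays. The call was lost without array 4, where the estimate was -0.17, and under 5 other settings, and without array 3 the estimate was -0.40. The SQLE probe lies at chr8:126103625-126103684 on hg18.

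DHCR7 makes cholesterol from 7-dehydrocholesterol, the last step of one branch of the pathway. Its log2 ratios were 0.73 on array 2, -0.20 on array 3 and -0.11 on array 4, and the spot on array 1, marked as an outlier and not fitted, read 0.77. The treated RNA was therefore brighter with Cy5 and slightly dimmer with Cy3, the opposite of SQLE. The estimate of 0.29 (SE 0.084, 95% interval 0.09 to 0.48, adjusted p = 0.033, or 1.22-fold) weights the orientations equally, the Cy5 side being array 2 alone. The plain mean of the 3 fitted arrays was 0.14 with an SD of 0.51. The difference between orientations was 0.88 (limma adjusted p = 0.0033). Control levels of the fitted arrays lay from 14.18 to 14.65 and treated levels from 14.39 to 14.91, which overlap. The call was lost with the series table (limma adjusted p = 0.073) and with the processed signals (limma adjusted p = 0.076). The probe lies at chr11:70823162-70823221 on hg18.

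**Figure D2:**
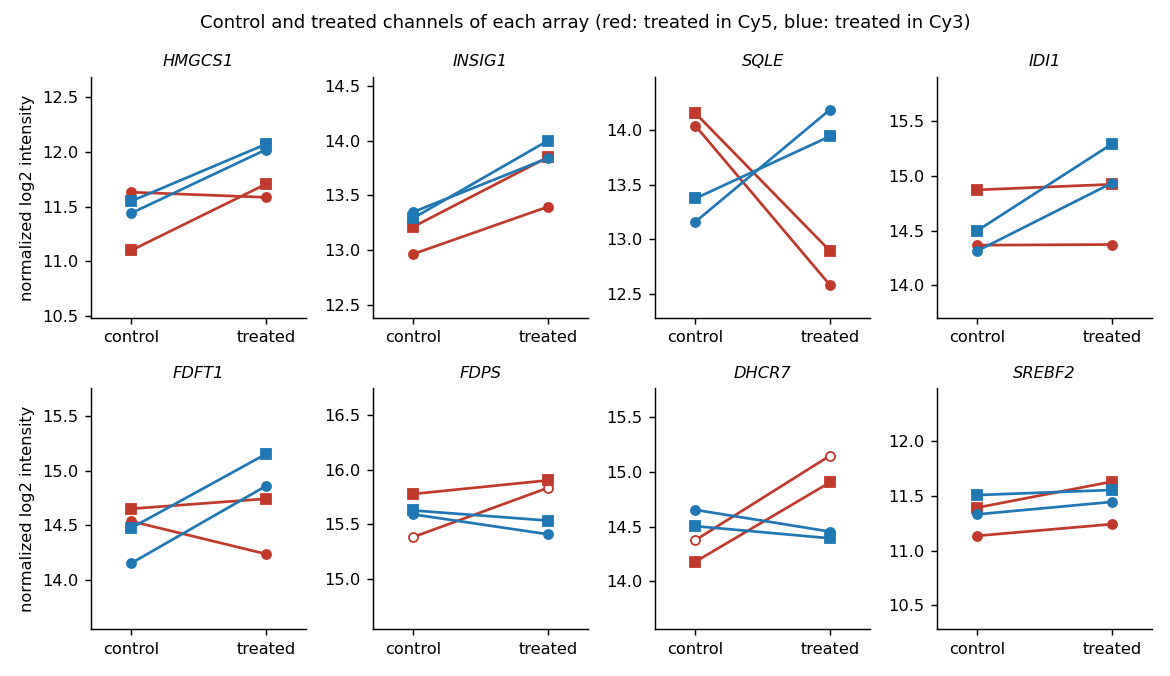
Normalized log2 intensity of the control and the treated channel, joined by a line for each array, in 8 panels that each span 2.2 log2 units (red, treated RNA in Cy5; blue, in Cy3; open circles, outlier spots not fitted). All 4 lines rise for INSIG1 and SREBF2, and also for IDI1, where those of arrays 1 and 2 are nearly flat. The lines of SQLE cross between the orientations.

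In the order of their estimates, the genes ran from INSIG1 through HMGCS1, IDI1, FDFT1, DHCR7, SREBF2 and FDPS to SQLE. No gene differed from its neighbour in this order by more than the larger of their SDs over arrays. INSIG1 and HMGCS1, for example, were 0.15 apart, with an SD of 0.31 for HMGCS1. IDI1, FDFT1, SQLE and DHCR7, 4 of 8 genes, passed the limma test of the difference between orientations, while 58.2% of all probes did. IDI1, FDFT1 and SQLE read higher with the treated RNA in Cy3, and DHCR7 read higher with it in Cy5. The 8 genes had medians of -0.02, 0.18, 0.54 and 0.55 on arrays 1 to 4, with array 1 giving 6 of the 8.

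The other enzymes of cholesterol synthesis were mixed. Of 16 listed genes 14 were tested, of which 5 were higher, or 35.7%, and 1 was lower, with a median log2 ratio of 0.04. For this and each list below, the shares over all probes were 24.3% higher and 13.0% lower. HSD17B7, a sterol ketoreductase of the steps after lanosterol, gave 0.92, 1.39, 0.76 and 1.03 on the 4 arrays. Every array was well above 0, and its estimate of 1.03 (SE 0.091, limma adjusted p = 0.00011) was a 2.04-fold higher signal, though the gene has a near-identical pseudogene copy that the probe may also read. SC5D, a sterol desaturase, was higher by 0.33 and LSS, the lanosterol synthase, by 0.28, but LSS was well above background on only 2 arrays. Without array 2 the LSS estimate was 0.16 and was not called (limma adjusted p = 0.11), and with the processed signals it was 0.63. In all, the LSS call was lost under 5 of 13 settings, and that of SC5D without array 4 and without the dye term. CYP51A1, the lanosterol demethylase, was also called, at 0.22, though its orientations read opposite signs (-0.24 and 0.69), and was named after its value was seen. LBR, a nuclear envelope protein with sterol reductase activity, fell by 0.34 (limma adjusted p = 0.017) over the 3 arrays fitted. It was called under 7 of 11 settings. The call was lost with the processed signals, the series table and no dye term, and with the outlier spot kept, where the estimate was -0.25.

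Genes that draw isoprenoids away from sterols moved both ways, with 3 of 7 tested higher and 2 lower, against 24.3% and 13.0% of all probes. GGPS1, which makes geranylgeranyl diphosphate, gave 0.26, 0.22, 0.74 and 0.71. It was above 0 on all 4 arrays and its estimate was 0.48 (limma adjusted p = 0.00067). PDSS1, which makes the side chain of coenzyme Q, gave -0.72, -0.80, -0.19 and -0.51, with an estimate of -0.55 (limma adjusted p = 0.00081). DHDDS of dolichol synthesis was higher by 0.36 and PGGT1B, a prenyltransferase subunit, by 0.28, but for both the orientations read opposite signs. FNTB, a farnesyltransferase subunit, was lower by 0.20 at an adjusted p of 0.0498 by limma, and it passed under 2 of 13 settings.

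**Figure D3:**
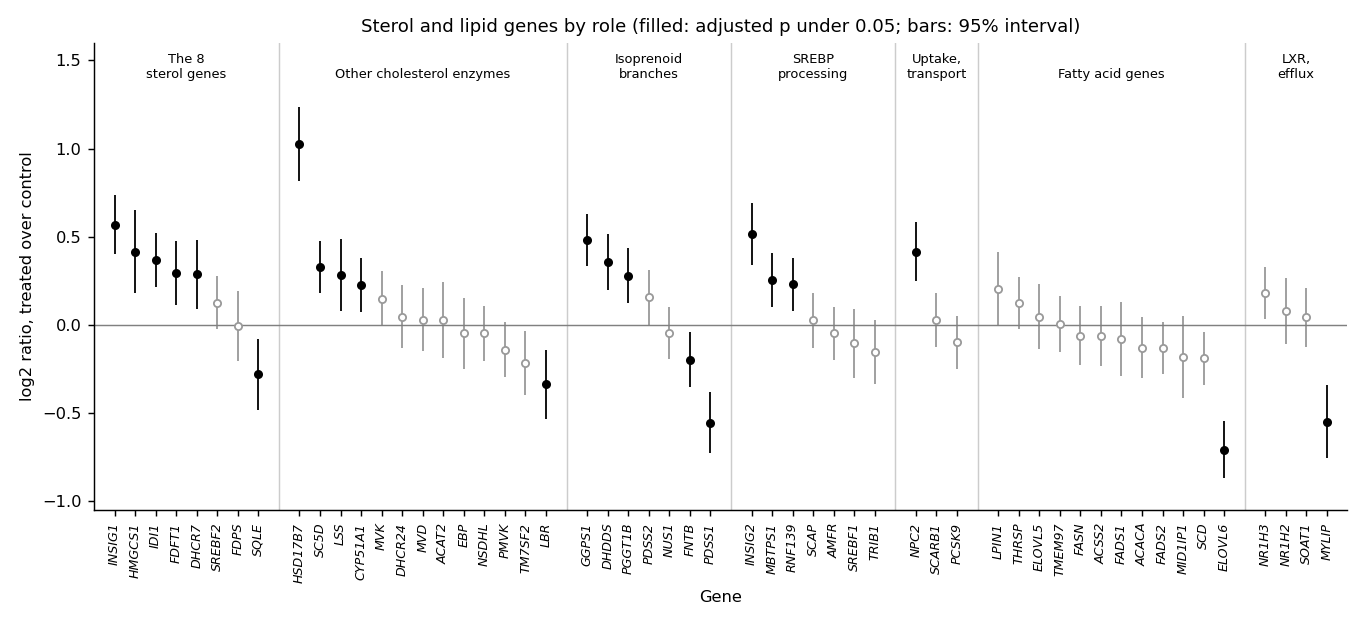
Limma estimates of the log2 ratio, treated over control, with 95% intervals, for the 8 sterol genes and other tested genes grouped by role (filled, adjusted p under 0.05). HSD17B7 at 1.03 is the highest and ELOVL6 at -0.71 the lowest.

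Among 7 tested genes that regulate SREBP, 3 were higher and none was lower by limma, also at an unadjusted p under 0.05. With 24.3% of all probes called higher and 13.0% lower, a list of 7 genes is too short to show a direction. INSIG2, the second INSIG gene, gave 0.01, 0.31, 0.79 and 0.95. Its estimate was 0.52 (limma adjusted p = 0.0012), near that of INSIG1, but it read lower in the Cy5 orientation than in the Cy3 orientation (limma adjusted p = 0.0043). MBTPS1, the first protease that cuts SREBP, and RNF139, a ubiquitin ligase of the endoplasmic reticulum, were called at 0.25 and 0.23. For both the orientations opposed each other, at -0.69 and 1.20 for MBTPS1 and -0.67 and 1.13 for RNF139. SCAP, the escort of SREBP, was at 0.03 (limma adjusted p = 0.79), and SREBF1, which encodes SREBP1, was at -0.10 (adjusted p = 0.37).

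In cholesterol uptake and transport 1 of 4 tested genes was called. NPC2, which carries cholesterol out of lysosomes, was that gene, with ratios of 0.76, 0.56, 0.05 and 0.29 and an estimate of 0.42 (limma adjusted p = 0.0030).

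Of the fatty acid genes driven mainly by SREBP1, 12 were tested. By limma none was higher, also at an unadjusted p under 0.05. At the adjusted threshold 1 was lower, and at the unadjusted one 2 were, with a median of -0.07 over the list. The gene called lower was ELOVL6, the elongase of long-chain saturated fatty acids, at -0.98, -1.17, -0.26 and -0.42. All 4 arrays were below 0, and its estimate was -0.71 (limma adjusted p = 0.00018). In the list of the oxysterol receptor LXR, efflux and esterification, 1 of 4 tested genes was called, MYLIP, which encodes a ubiquitin ligase induced by LXR. It fell by 0.55 (limma adjusted p = 0.0021), with ratios of -0.25, -0.62, -0.86 and -0.47. Over these 6 lists together, 12 of 48 tested genes were higher, or 25.0%, close to the 24.3% of all probes, and 5 were lower, with a median of 0.03. Without the dye term none of the 48 passed limma's adjusted threshold. At an unadjusted p under 0.05 there were 8, again without a share over all probes to set them against.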

How the data were processed

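The authors scanned 4 two-colour arrays of K562 cells and deposited the intensity of spots and local background in both channels, unnormalized, as Feature Extraction 9.5.1.1 wrote it. Its own processed intensity and the log10 of Cy5 over Cy3 were deposited beside them. The authors' series table holds log10 ratios, of which 99.9% to 100% per array lay within 0.001 of the arrays' own once the sign was turned on arrays 3 and 4, so that they read treated over control. Array positions are on hg18 and probes were named by accession (12002 of 14297) through a RefSeq table of GRCh38.p14.

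The background was corrected with normexp (offset 50), control spots and spots marked as outliers were left out, and arrays were normalized by loess (span 0.3). Intensities by channel were scaled between arrays for levels only. Probes with 1 or both channels well above background on 2 or more arrays were fitted with limma 3.58.1 in R 4.3.3, with Benjamini-Hochberg adjustment over all 8852. The step was tested on simulated ratios. It recovered 90% of probes with a true log2 ratio of size 1 but only 53% of those of size 0.5. Of the probes called there, 2.72% had no true change. A gene with a change of the size seen here can thus be missed. Other genes named are those called in 6 lists of sterol and lipid genes, at most 5 a list, and SREBF1, SCAP and INSIG2. Some results are not reported here. The genes and lists were chosen with earlier results of these data known. Alternatives were other background, normalization and filter choices, the series table, no dye term, outlier spots kept, an intensity-dependent prior, and each array left out. All arrays lay on 1 slide with 1 scan date, so neither could be a block.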

Additional observations from a re-analysis of the deposited data

Results flagged for a closer look

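HMGCS1 had 1 array far from the other 3. Its log2 ratio was -0.05 on array 1 and 0.52 to 0.61 on the others, and the gap made up 0.870 of the whole range over the 4 arrays. Of 22 genes measured on 4 arrays that were examined in this way, this was the only 1 past Dixon's critical value, and chance marks about 1 in 20.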

How the results depend on the processing

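Of the 8 genes, the number called higher was 3 with Feature Extraction's processed signals, 2 with the series table and 0 without the dye term, and from 1 to 5 with 1 array left out. The number called lower was 0 with the processed signals, median centring, the series table, no dye term or outlier spots kept, and from 0 to 1 with 1 array left out. Their median log2 ratio lay from 0.22 to 0.34 with 1 array left out, and from 2 to 4 passed the test of the orientations. Over the other lists, 7 genes were higher with the processed signals, 6 with the series table and 0 without the dye term, and 3 to 12 with 1 array left out. Those lower were 0 without the dye term, 3 with outlier spots kept, and 3 to 10 with 1 array left out. Over all probes, fewer were also higher with the processed signals, 1577, and with the series table, 1581, against 2155 in the main fit. There were 1342 higher when both channels had to be well above background and 52 without the dye term, against 1010 to 2590 with 1 array left out. Those lower were 596 with median centring, 4 without the dye term, and 283 to 1469 with 1 array left out. FDPS turned to 0.075 with outlier spots kept, and SCAP to -0.0012 with the processed signals, -0.0017 with the series table and -0.026 without array 2 (range -0.026 to 0.078 with 1 array left out). The causes were not tested. Of the other single-gene values of the 8 genes, 74 kept direction and call, 22 kept the direction only and 1 gained a call. DHCR7, FDPS and other genes with a marked spot had no value in some fits with 1 array left out. Negative control spots varied more on arrays 1 and 2, which limits dim probes there.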

Other observations

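The median profile of the 8 sterol genes over the 4 arrays was -0.02, 0.18, 0.54 and 0.55 in log2 ratio. Among 7985 other probes measured on all arrays, those of WASF1, FMR1, MTMR14, BNIP2 and SNN lay nearest to it, at Euclidean distances of 0.082, 0.086, 0.096, 0.109 and 0.109 over the 4 log2 ratios. WASF1, an actin regulator, gave 0.03, 0.12, 0.53 and 0.53, and FMR1, an RNA-binding protein gene, gave 0.01, 0.22, 0.49 and 0.59. These probes were chosen for this likeness, so their values are a description only.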
